A study of Mus musculus with 27 samples.

Results

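The 9 transcripts described here encode the scaffold proteins at the core of the postsynaptic density of excitatory synapses. They are the rows listed in the deposited expression table as shank1, shank2, shank3, dlg1, dlg2, dlg3, dlg4, lrrc7 and homer1, and were taken by symbol. They are 9 of the 26264 genes in the table and 9 of the 12976 genes whose mean over the 27 libraries reached 1 FPKM (fragments per kilobase of gene, scaled to the library total) and which were therefore tested. All 9 passed that filter.

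The study asked what compounds that stabilise the retromer, an endosomal sorting complex, do to gene expression in the cortex of a mouse model of Alzheimer's disease. All animals were female 5xFAD mice of 16 weeks, which carry mutant human transgenes of familial Alzheimer's disease driven in neurons by the Thy1 promoter. The control mice therefore carried the transgenes as well, and no group without them was analysed here. Each mouse received 500 nL into the lateral parietal association cortex of 1 hemisphere, holding either R33 or R55, both thiophene thioureas at 10 mM, or the vehicle alone (DMSO and sulfobutylether β-cyclodextrin in saline), and cortex was taken from both hemispheres 24 h later. There were 4 vehicle mice, 5 R33 mice and 5 R55 mice, and 13 of the 14 mice gave a library from each hemisphere, the exception being the R33 mouse AE with the injected side only. Libraries held 15932197 to 38077027 fragments in genes. Mice are named by the letters in the sample labels.

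The postsynaptic density is a protein mesh beneath the membrane of the dendritic spine that holds glutamate receptors opposite the site of transmitter release. Membrane-associated guanylate kinases of the Dlg family sit nearest the receptors and bind their tails, proteins of the Dlgap family bridge them to Shank proteins deeper in the mesh, and Homer proteins tie Shank to metabotropic glutamate receptors and to calcium stores. Densin-180, encoded by Lrrc7, binds CaMKII and Shank and adds a further link. In cortex these transcripts come mainly from neurons, and in tissue blocks fewer cells of a type and less RNA per cell cannot be told apart.

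The sequences upstream of 3 of the scaffold genes are shown because these genes set out the range of behaviour described below: Lrrc7 was the member furthest from vehicle, Homer1 is partly an activity-regulated gene, and Shank3 moved closely with the other Shank transcripts. RefSeq windows (build GRCm38.p6) were found for 7 of the 9 members, with 16 windows in all, and none was found for Shank1 or Shank2. Each sequence covers the 250 bases before an annotated start, written 5′ to 3′ on the strand of the gene. Capitals mark GGGCGG (the GC box) and TGACG (the half-site of the cAMP response element) on either strand.
Lrrc7, chr3:158561762-158562011, minus strand: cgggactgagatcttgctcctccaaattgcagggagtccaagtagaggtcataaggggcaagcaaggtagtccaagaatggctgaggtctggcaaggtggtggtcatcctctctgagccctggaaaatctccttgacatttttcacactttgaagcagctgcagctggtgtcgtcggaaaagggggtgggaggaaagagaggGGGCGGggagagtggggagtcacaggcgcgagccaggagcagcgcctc
Homer1, chr13:93303507-93303756, plus strand: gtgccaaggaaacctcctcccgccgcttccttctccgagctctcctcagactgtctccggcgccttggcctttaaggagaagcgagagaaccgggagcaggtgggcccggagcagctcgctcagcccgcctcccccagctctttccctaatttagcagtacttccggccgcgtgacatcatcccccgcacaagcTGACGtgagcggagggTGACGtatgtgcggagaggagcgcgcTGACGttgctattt
Shank3, chr15:89499358-89499607, plus strand: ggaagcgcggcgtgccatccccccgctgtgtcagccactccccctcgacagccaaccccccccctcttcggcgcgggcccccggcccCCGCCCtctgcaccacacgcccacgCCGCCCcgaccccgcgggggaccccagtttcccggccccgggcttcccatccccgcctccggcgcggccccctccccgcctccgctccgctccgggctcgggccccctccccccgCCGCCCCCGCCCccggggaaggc

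The Homer1 window shown held 3 half-sites of the cAMP response element and the other Homer1 window of the table held 0. At least 1 half-site was in 3 of the 16 member windows, those of Dlg3, Dlg4 and Homer1, and in 17.8% of the 32851 windows in the RefSeq table. The Lrrc7 window held 1 GC box and the Shank3 window 4. At least 1 GC box was in 6 of the 16 member windows and in 32.7% of all windows. The full element TGACGTCA was in none of the 16 member windows and in 1.55% of all windows. The Shank3 window was 82.4% G and C, against 57.2% for Lrrc7, 62.4% for Homer1 and a median of 52.4% over all windows. A motif match is a description of these letters and was not related to any measured binding.

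Among the members, the transcript of PSD-95, Dlg4, was the most abundant scaffold by a wide margin. Its median over the 27 libraries was 306 FPKM, 3.31 times that of Shank1 at 92.6 FPKM, and the lowest Dlg4 library lay above the highest Shank1 library. Below Shank1 came Dlg2 (PSD-93) at 62.3 FPKM, Shank3 at 49.8 FPKM, Dlg3 (SAP102) at 36.3 FPKM, Dlg1 (SAP97) at 31.4 FPKM, Shank2 at 29.8 FPKM and Homer1 at 19.6 FPKM. Lrrc7 was the least abundant at 9.85 FPKM, and its range did not overlap that of Homer1. Neighbours in this order were not always separate. Dlg1 exceeded Shank2 in 19 of 27 libraries and Dlg3 exceeded Dlg1 in 21 of 27, with overlapping ranges in both pairs. These orders were not tested. The order of Dlg2 and Shank3 held in 25 of 27 libraries, those of Shank3 and Dlg3 and of Shank2 and Homer1 in 26 of 27, and that of Shank1 and Dlg2 in 27 of 27. FPKM is scaled by length, so levels can be set beside each other, within the limit that one length was used for each gene.

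**Figure D1:**
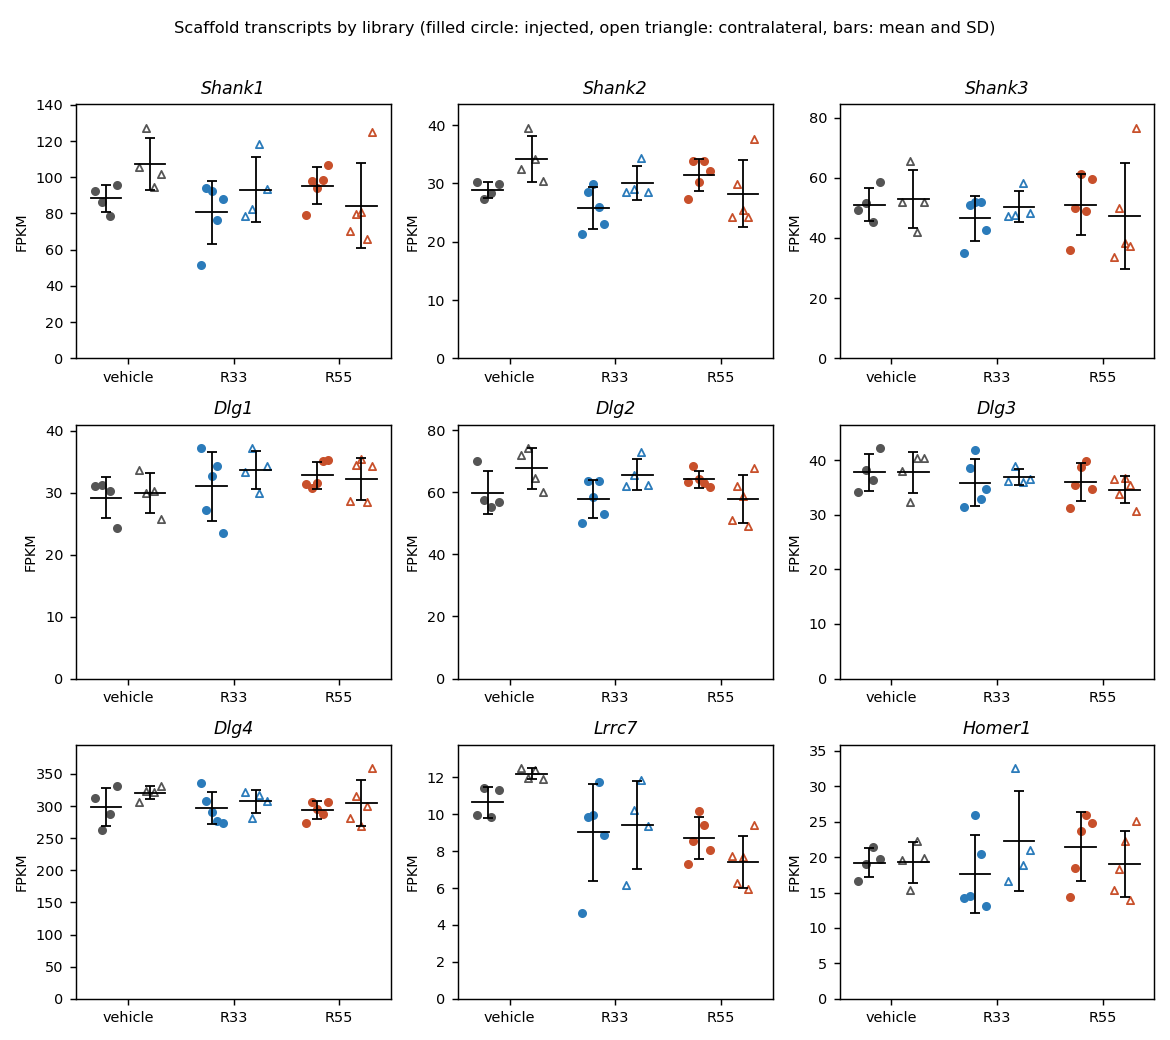
FPKM (y axis, from 0) of each of the 9 scaffold transcripts in each library, by treatment, with the injected hemisphere as filled circles and the contralateral hemisphere as open triangles; bars give the mean and SD over libraries. Lrrc7 in R55 libraries sat between 5.96 and 10.2 FPKM, against 9.85 to 12.5 FPKM in vehicle libraries, while Dlg4 ranged from 262 to 359 FPKM over all groups.

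The genes lie on 7 different chromosomes of the GRCm39 assembly, the build to which the reads were aligned. Shank1 (chr7:43959615-44009996), Shank2 (chr7:143532669-143979779) and Dlg2 (chr7:90125880-92098455) share chromosome 7. Shank3 is at chr15:89383826-89444464, Dlg1 at chr16:31482187-31693947, Dlg3 at chrX:99810768-99862016, Dlg4 at chr11:69907768-69938348, Lrrc7 at chr3:157785560-158267927 on the minus strand and Homer1 at chr13:93436143-93541637. All are annotated as protein coding, and values cover the whole gene, so that isoforms such as the short activity-induced form of Homer1 were not resolved. The scaffold genes make long transcripts. The length behind the FPKM values was 22711 bp for Lrrc7, longer than 99.96% of the tested genes and above the 21780 bp that the annotated exons of the gene cover together, and between 5637 bp and 8899 bp for the others except Dlg4 at 3684 bp, beside a median of 3149 bp over all tested genes.

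R55 was compared with vehicle to ask whether the compound alters the scaffold transcripts. Lrrc7 was lower in R55 mice, and the other 8 members lay close to vehicle. No member passed the threshold (limma, Benjamini-Hochberg adjusted p under 0.05 over all 12976 genes), at which 0.00771% of all tested genes were called in this comparison. At an unadjusted p under 0.05, 1 of the 9 members was lower and none was higher, where 3.74% of all tested genes were lower. Of the 9 members 7 had a negative difference and their median was -0.08 on the log2(FPKM + 1) scale, against a median of 0.03 over all tested genes, 39.8% of which were negative.

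Lrrc7 was the member with that unadjusted p. In the injected hemisphere of vehicle mice Lrrc7 measured 11.4 FPKM in J, 11.3 in M, 9.85 in L and 9.97 in AH, and in the contralateral hemisphere 11.99, 11.93, 12.4 and 12.5 FPKM. In the injected hemisphere of R55 mice it measured 10.2 FPKM in P, 7.28 in AA, 9.40 in Q, 8.04 in R and 8.56 in AB, and in the contralateral hemisphere 7.70, 7.75, 5.96, 9.43 and 6.26 FPKM. Single libraries overlapped only through the injected side of mouse P, which lay above the injected sides of the vehicle mice L and AH. With the hemispheres of a mouse averaged, all 5 R55 mice lay below all 4 vehicle mice. The mouse means were 8.06 ± 0.725 FPKM for R55 (SD, n = 5) and 11.4 ± 0.284 FPKM for vehicle (SD, n = 4), so that R55 mice stood at 70.5% of vehicle.

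The fitted difference for Lrrc7 was -0.47 on the log2 scale (95% interval -0.72 to -0.21), with an unadjusted p of 0.000906 and an adjusted p of 0.287 in limma. It ranked at 41 among the 12976 genes by p in this fit, which takes both libraries of a mouse as replicates. With 1 value per mouse, limma called 0 genes. At an unadjusted p under 0.05 in that fit 1 of the 9 members was lower, where 232 of the 12976 tested genes were. An exact two-sided permutation test on the mouse means of log2 values gave p = 0.00794, the smallest value that the 126 splits of 9 mice can give. Of the 9 members tested in this way Lrrc7 alone went under 0.05, without correction for that number. Every R55 mouse lay below every vehicle mouse for 1 member, Lrrc7, and for 1.41% of all tested genes. Within mice with 1-letter labels the difference was -0.42 (3 R55 and 3 vehicle mice), and within mice with 2-letter labels it was -0.53 (2 R55 mice and 1 vehicle mouse).

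**Figure D2:**
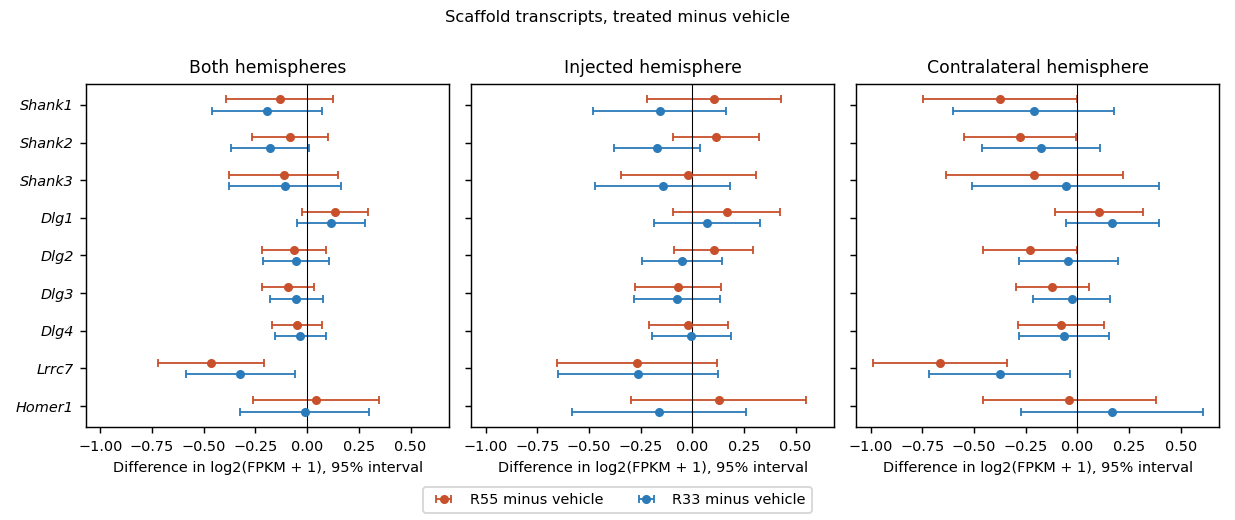
Difference from vehicle in log2(FPKM + 1) with its 95% interval (x axis) for each scaffold transcript, R55 in red and R33 in blue, over both hemispheres and in each hemisphere alone. The Lrrc7 estimates lay below 0 in each panel, at -0.47 for R55 and -0.32 for R33 over both hemispheres, and no interval shown belongs to a gene that passed the adjusted threshold.

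Lrrc7 moved with a property of whole libraries. In each library the deviation of every tested gene from its own mean was regressed on the logarithm of gene length, giving a slope in log2 units per unit of log10 length. The slope ran from -0.14 to 0.21 over vehicle libraries, from -0.75 to 0.16 over R33 libraries and from -0.58 to 0.22 over R55 libraries, with the injected side of the R33 mouse AD and the contralateral side of the R55 mouse Q at the low end. Those libraries held the lowest Lrrc7 values of the series, 4.67 and 5.96 FPKM. Over the 27 libraries, which share mice, the Pearson correlation of the slope was taken with each member as log2(FPKM + 1). The correlation was 0.81 for Lrrc7, 0.63 for Shank1, 0.55 for Homer1, 0.53 for Dlg3, 0.50 for Dlg2, 0.47 for Shank2 and 0.41 for Shank3. It was -0.16 for Dlg1 and -0.25 for Dlg4, the shortest member. Other long genes lay below vehicle too. Of the 328 other tested genes longer than 10000 bp, a limit chosen after the values were seen, 95.1% were lower in R55 mice, with a median of -0.19 and 157 lower against 0 higher at an unadjusted p under 0.05. The 1 gene called in the whole comparison, the ryanodine receptor gene Ryr2, which is named here for that value, was among them.

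**Figure D3:**
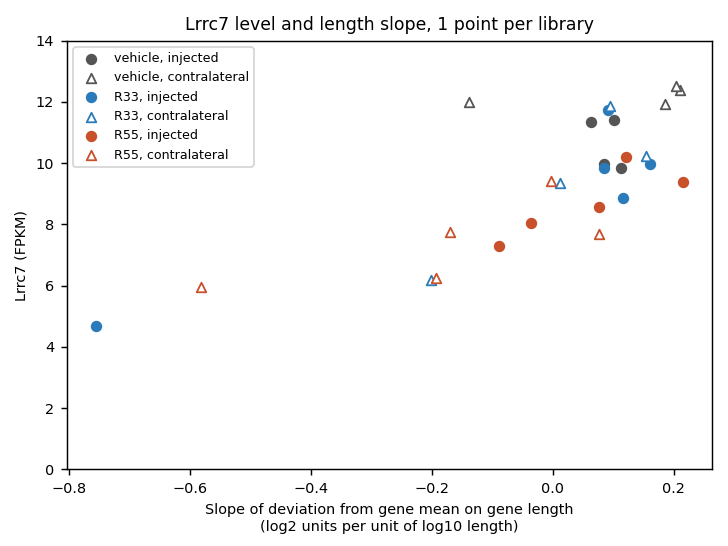
Lrrc7 level in FPKM (y axis, from 0) against the slope of each library's deviations on gene length (x axis, log2 units per unit of log10 length), 1 point per library, with colour for treatment and shape for hemisphere. The libraries with slopes of -0.75 and -0.58 held 4.67 and 5.96 FPKM. The correlation of the slope with Lrrc7 as log2(FPKM + 1) over all 27 was 0.81.

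With each library's smooth trend on length removed, the Lrrc7 difference was -0.14 (limma, unadjusted p 0.0354, adjusted p 0.734) in place of -0.47, and Dlg1 stood at 0.18 (unadjusted p 0.0470). With 1 value per mouse and the trend removed, 0 members went under an unadjusted p of 0.05. Without the 2 libraries of steepest slope, a choice made after seeing the data, Lrrc7 was at -0.43 (limma, adjusted p 0.0797). Only 4 tested genes were longer than Lrrc7, so that the trend is least well fixed at its length. How far the length trend accounts for the lower Lrrc7 was not tested beyond these values. The adjusted p fell under the threshold when the spread was estimated without R33 mice (0.0469) and without the single R33 mouse AD (0.00952), a mouse that enters this comparison only through the shared estimate of spread.

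The 3 Shank transcripts, which encode the deep scaffold linking the receptor complexes to actin, were each slightly below vehicle in R55 mice, and none differed beyond the replicate spread. Shank1 ran from 66.0 FPKM through a median of 87.2 to 125 FPKM in R55 libraries and from 78.4 through 95.1 to 128 FPKM in vehicle libraries, so that the ranges overlapped over most of their width. Its difference was -0.13 (95% interval -0.39 to 0.13). Shank2 ran from 24.2 through 30.0 to 37.6 FPKM in R55 libraries and from 27.3 through 30.3 to 39.6 FPKM in vehicle libraries, with a difference of -0.08. Shank3, whose loss in humans causes Phelan-McDermid syndrome, ran from 33.7 through 49.3 to 76.7 FPKM in R55 libraries and from 42.1 through 51.7 to 65.7 FPKM in vehicle libraries, with a difference of -0.11. Shank3 spread more between R55 mice than between vehicle mice: its SD over mouse means was 12.3 FPKM for R55 (n = 5) and 6.48 FPKM for vehicle (n = 4), and the spreads themselves were not compared by a test.

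The 4 Dlg transcripts differed from vehicle by 0.13 or less on the log2 scale, none beyond the replicate spread. Dlg4 ran from 268 through 297 to 359 FPKM in R55 libraries and from 262 through 317 to 331 FPKM in vehicle libraries. Its difference was -0.05 (95% interval -0.17 to 0.07), the narrowest interval of the 9. Dlg2 was at -0.06, with mouse means of 61.0 ± 4.26 FPKM for R55 (SD, n = 5) and 63.9 ± 5.83 FPKM for vehicle (SD, n = 4). Dlg3, an X-linked gene of intellectual disability, was at -0.09, with 35.3 ± 2.26 FPKM for R55 (SD, n = 5) and 37.8 ± 2.70 FPKM for vehicle (SD, n = 4). Dlg1, which also serves epithelial polarity, was the member with the largest positive difference, 0.13 (95% interval -0.02 to 0.29), with 32.5 ± 1.80 FPKM for R55 (SD, n = 5) and 29.6 ± 3.16 FPKM for vehicle (SD, n = 4).

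Homer1 was at 0.04 (95% interval -0.26 to 0.35) in R55 mice, the interval reflecting its large spread between mice. It ran from 13.9 through 20.4 to 26.0 FPKM in R55 libraries, from 13.1 through 18.9 to 32.6 FPKM in R33 libraries and from 15.4 through 19.7 to 22.2 FPKM in vehicle libraries. The highest values were those of the R33 mouse K, 25.9 FPKM on the injected and 32.6 FPKM on the contralateral side. Because a short form of Homer1 is induced by neuronal activity, 6 activity-regulated transcripts were read beside it. Arc was at 0.76 in R55 mice, Fos at 0.65 and Dusp1 at 0.56, with unadjusted p of 0.0215, 0.0186 and 0.0133 in limma, while Nr4a1 stood at 0.39, Npas4 at 0.45 and Egr1 at 0.35. Of all 12976 tested genes, 611 were higher at an unadjusted p under 0.05. On the injected side alone, with each mouse entered once, Arc, Fos and Dusp1 stood at 0.83, 0.87 and 0.59 (limma, unadjusted p 0.0366, 0.00364 and 0.0267). Contralaterally they stood at 0.69, 0.43 and 0.53 (limma, unadjusted p 0.178, 0.325 and 0.130). None of the 6 passed the adjusted threshold. In R33 mice the same 6 had a median difference of -0.07, with none under an unadjusted p of 0.05.

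R33, injected at the same dose and collected at the same time, was compared with the same vehicle mice. No member was called, where 0.0% of all tested genes were called (limma, 0 genes, with 414 higher and 348 lower at an unadjusted p under 0.05, and also 0 by voom on recovered fragments). Of the 9 members 8 were negative, where 42.5% of all tested genes were. Their median was -0.05 against 0.02 over all tested genes. At an unadjusted p under 0.05, 1 member was lower where 2.68% of all tested genes were. That member was again Lrrc7, at -0.32 (95% interval -0.59 to -0.06, limma unadjusted p 0.0180, adjusted p 0.834). Lrrc7 measured 9.96, 11.7, 8.88, 4.67 and 9.85 FPKM on the injected side of the R33 mice K, N, O, AD and AE, and 10.2, 11.9, 9.35 and 6.19 FPKM on the contralateral side of the first 4 of them. Mouse AD was the low one on both sides, while the mean of mouse N, 11.8 FPKM, lay above that of every vehicle mouse. With 1 value per mouse, that of mouse AE being its injected side alone, the unadjusted p was 0.0530 in limma. An exact two-sided permutation test on the mouse means of log2 values gave p = 0.111. Without mouse AD the difference was -0.14 (limma, unadjusted p 0.125), and with the length trend removed it was -0.07. Of the 328 other genes longer than 10000 bp, 91.2% were lower in R33 mice, with a median of -0.14.

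Shank2 is described in R33 mice because its permutation p on mouse means, given below, was the lowest of the 9 members. Its fitted difference was -0.18 (95% interval -0.37 to 0.01, limma unadjusted p 0.0595), and with the log2 values of each mouse averaged, every R33 mouse lay below every vehicle mouse, as was so for 0.416% of all tested genes. With FPKM averaged instead, the R33 mouse N at 30.17 lay above the vehicle mouse M at 30.13. Mouse AE entered by its injected side alone, at 28.56 FPKM, beside vehicle means of both sides. Shank2 was lower on the injected side in all 4 vehicle mice. The injected side of AE lay above those of J at 27.31 and L at 28.32, and below those of M at 29.86 and AH at 30.16. The part of this imbalance in the separation of mouse means was not tested. Mouse means were 27.8 ± 2.29 FPKM for R33 (SD, n = 5) and 31.5 ± 1.39 FPKM for vehicle (SD, n = 4). An exact two-sided permutation test on the mouse means of log2 values gave p = 0.0238, which was 1 of 9 computed and was not corrected. Shank1 was at -0.19 and Shank3 at -0.11, neither beyond the spread. Dlg1 was again positive at 0.12, Dlg2 stood at -0.05, Dlg3 at -0.05, Dlg4 at -0.03 and Homer1 at -0.01. R33 and R55 were read against the same vehicle mice, so that the likeness of their values is in part that of the shared controls.

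The compounds were compared directly at their matched dose and time, over 9 member pairs. No member was called (limma, 0.0% of all tested genes called, 95 higher and 54 lower in R55 at an unadjusted p under 0.05, and 0 called by voom), and none of the 9 reached an unadjusted p of 0.05. The estimates for R55 minus R33 ran from -0.14 for Lrrc7 (95% interval -0.39 to 0.11) to 0.10 for Shank2 (95% interval -0.08 to 0.28). For Shank1 the interval was -0.19 to 0.31, for Shank3 -0.26 to 0.25 and for Homer1 -0.24 to 0.35, so that differences up to these limits were not excluded. The intervals were narrower for Dlg4 (-0.13 to 0.10), Dlg3 (-0.16 to 0.08), Dlg2 (-0.16 to 0.14) and Dlg1 (-0.13 to 0.17). Without the R33 mouse AD the Lrrc7 difference was -0.32 (limma, adjusted p 0.379).

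The injected hemisphere was set against the contralateral one to separate local from general differences. Over all mice no member was called (limma, 0.0% of all tested genes, 189 higher and 261 lower at an unadjusted p under 0.05, and 0 by voom). The estimates ran from -0.08 for Shank2 to 0.00 for Shank3 and Dlg3, with a median of -0.04. Paired within the 13 mice with both sides, the median was -0.03 and again none was called.

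Within treatments the scaffolds did not run the same way. In the 4 vehicle mice, paired by mouse, 8 of the 9 members were lower on the injected side, 3 of them at an unadjusted p under 0.05 where 1.43% of all tested genes were. In the 4 paired R33 mice all 9 were lower, 2 of them at that level where 1.76% of all genes were. In the 5 R55 mice 8 of the 9 were higher on the injected side, none at that level. The medians over members were -0.11, -0.16 and 0.16, and no adjusted p passed the threshold in any of the 3.

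Shank1 shows the pattern by mouse. On the injected and then the contralateral side it measured 86.6 and 128 FPKM in the vehicle mouse J, 95.8 and 102 in M, 78.4 and 94.4 in L and 92.5 and 106 in AH. In the R55 mice the pairs were 93.9 and 80.6 FPKM in P, 79.4 and 70.4 in AA, 98.8 and 66.0 in Q, 107 and 125 in R and 98.02 and 79.9 in AB. All 4 vehicle mice were lower on the injected side, whereas 4 of the 5 R55 mice were higher there and mouse R was lower. The mean within-mouse difference was -0.27 ± 0.20 (SD, n = 4) for vehicle, -0.28 ± 0.39 (SD, n = 4) for R33 and 0.21 ± 0.29 (SD, n = 5) for R55 on the log2 scale. Shank2 gave -0.23 ± 0.22 for vehicle, -0.26 ± 0.21 for R33 and 0.16 ± 0.25 for R55, with the same counts of mice in each direction as Shank1. Dlg2 gave -0.18 ± 0.15, -0.22 ± 0.06 and 0.16 ± 0.19, and was lower on the injected side in 4 of 4 vehicle and 4 of 4 R33 mice and higher in 4 of 5 R55 mice. Lrrc7 gave -0.18 ± 0.14, -0.11 ± 0.15 and 0.21 ± 0.34, lower in 4 of 4 vehicle and 4 of 4 R33 mice and higher in 3 of 5 R55 mice.

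**Figure D4:**
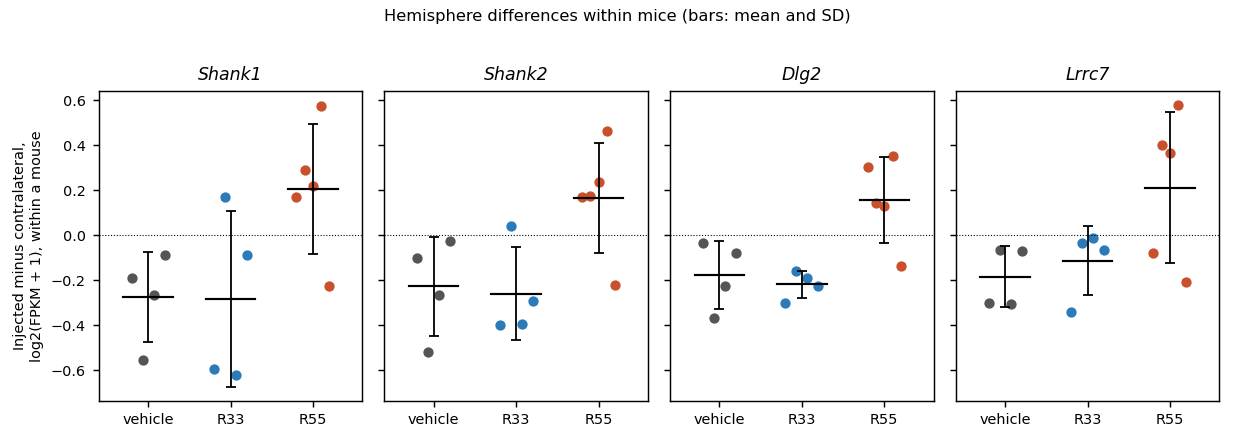
Injected minus contralateral difference in log2(FPKM + 1) within each mouse (y axis) for Shank1, Shank2, Dlg2 and Lrrc7, by treatment, 1 point per mouse with the mean and SD. For Dlg2 all 4 vehicle and all 4 R33 mice lay below 0 and 4 of 5 R55 mice above it.

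These 4 genes were described in full after their values were seen. The interaction, the R55 difference on the injected side minus that on the contralateral side, was positive for all 9 members. Their median was 0.19 against -0.03 over all tested genes, 58.3% of which were negative. It was 0.48 for Shank1, 0.39 for Shank2, 0.33 for Dlg2 and 0.40 for Lrrc7. At an unadjusted p under 0.05, 2 members were positive (Shank2, p 0.0222, and Dlg2, p 0.0218, in limma) where 0.601% of all tested genes were. With the mouse as replicate block 4 were positive (Shank1, Shank2, Dlg2 and Lrrc7) where 2.45% of all tested genes were. The adjusted p did not pass in either fit (0.999 and 0.806 for these genes), and 0.0% of all tested genes were called. With mice left out in turn the median ran from 0.13 to 0.32. Without the R55 mouse Q 2 members were negative, without the vehicle mouse J 1 was, and in both cases 0 went under an unadjusted p of 0.05. With the length trend removed the median was 0.09, 2 members were negative and no member went under that level. Of the 328 other genes longer than 10000 bp, 10.1% had a negative interaction, against 58.3% of all tested genes, with a median of 0.17.

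R55 and vehicle mice were also compared within each hemisphere. On the contralateral side 8 of the 9 members were below vehicle, where 39.1% of all tested genes were. Their median was -0.21 against 0.05 over all tested genes. At an unadjusted p under 0.05, 4 members were lower where 4.74% of all tested genes were. These were Lrrc7 at -0.66 (95% interval -0.99 to -0.34, limma unadjusted p 0.000607, adjusted p 0.357), Shank1 at -0.37, Shank2 at -0.28 and Dlg2 at -0.23, the last 3 with unadjusted p between 0.0452 and 0.0490. With mice left out in turn the count of 4 ran from 1 to 5, with 1 left without any of K, P, O, AA, Q, AH or AD and 5 without R, and it was 1 without the libraries of steepest slope. All 5 R55 mice lay below all 4 vehicle mice for contralateral Lrrc7. For contralateral Shank1 the R55 mice P, AA, Q and AB lay below every vehicle mouse and mouse R, at 125 FPKM, lay above all but J. On the injected side 4 of the 9 members were negative, where 45.2% of all tested genes were. The members' median was 0.10 there, and none went under an unadjusted p of 0.05. Lrrc7 stood there at -0.27, Shank1 at 0.11, Shank2 at 0.12 and Dlg2 at 0.10. No gene of the table was called in either hemisphere alone (0.0% of 12976 by limma, with 875 higher and 615 lower contralaterally and 68 higher and 73 lower on the injected side at an unadjusted p under 0.05). With the length trend removed Lrrc7 was the 1 member left at that level contralaterally, at -0.20. In R33 mice contralateral Lrrc7 was at -0.38 (limma, unadjusted p 0.0336), the 1 member lower at that level where 1.22% of all tested genes were, and injected Lrrc7 was at -0.26.

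The scaffolds varied together in part. Over the 14 mice, with hemispheres averaged, Shank1 and Shank3 had a Pearson correlation of 0.88, Shank1 and Shank2 0.81, and Shank2 and Shank3 0.79. After subtraction of each treatment's mean these were 0.89, 0.79 and 0.85. Dlg2 followed the Shank transcripts at 0.64 to 0.67, and Lrrc7 followed Shank1 at 0.73. Dlg1 and Dlg3 ran apart from each other, at -0.46, and Dlg4 with Lrrc7 was at -0.12. The 14 points share libraries and preparation, and these values are descriptions. The 5 tested genes most like the mean of the 9 standardised members were Sipa1l1 (r = 0.90), Med13l (0.87), Apc (0.86), Mib1 (0.85) and Fam217b (0.82). Sipa1l1 encodes SPAR, a Rap regulator that binds PSD-95, and 4 of these 5 are long genes of 7699 to 12709 bp.

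The other postsynaptic density genes, a list of 45 of which all were tested, gave values near those of the members. In R55 against vehicle none was called and 30 of 45 were negative with a median of -0.07, where 39.8% of all tested genes were negative. At an unadjusted p under 0.05, 5 were lower and 0 higher, where 3.74% of all tested genes were lower. The 5 were Dlg5, Grip1, Cnksr2, Tanc2 and Nlgn1, named after their values were seen. In R33 against vehicle 37 of 45 were negative with a median of -0.08, where 42.5% of all tested genes were negative. At that level 4 were lower where 2.68% of all tested genes were, Dlgap4, Tanc2 and Nlgn1 among them, named in the same way. In R55 against R33 none was under that level and the median was 0.02. With the length trend removed the medians were -0.01 and -0.02 for R55 and R33 against vehicle, with 24 and 27 of 45 negative, and at that level 2 were lower and 1 higher for R55 and 0 for R33.

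By role, the Dlgap bridge proteins between the Dlg and Shank layers had 3 of 5 negative in R55 mice, with Dlgap3 at 0.06 and Dlgap1 at -0.07. Among other Homer and Shank partners 3 of 5 were negative, with Lzts3 at 0.13 and cortactin, an actin-binding partner of Shank encoded by Cttn, at -0.14. Of the other membrane-associated guanylate kinases and Lin7 proteins 4 of 9 were negative, with Lin7b at 0.19 and Mpp2 at 0.01. The regulators of small GTPases, which shape the spine cytoskeleton, had 7 of 8 negative, with Agap2 at -0.15 and Sipa1l1 at -0.04. Of the other scaffolds and adaptors 8 of 11 were negative, with spinophilin, encoded by Ppp1r9b, at -0.05 and Baiap2 at -0.01. Of the postsynaptic adhesion proteins 5 of 7 were negative, with Nlgn2, the neuroligin of inhibitory synapses, at -0.07 and Nlgn3 at -0.15. The 12 named here were the most abundant of each role. In the contralateral hemisphere of R55 mice 36 of 45 were negative with a median of -0.13, where 39.1% of all tested genes were negative. At an unadjusted p under 0.05, 11 were lower and 1 higher (Lin7b), where 4.74% of all tested genes were lower. With the length trend removed 30 of 45 were negative there, with 3 lower and 2 higher at that level and a median of -0.03.

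Markers of cortical cells were read beside these values. The summed FPKM of 5 excitatory neuron markers, with Slc17a7 and Camk2a among them, ran from 1339 to 1974 over vehicle, from 1185 to 1783 over R33 and from 1354 to 2066 over R55 libraries, and 0 of the 5 were called in either comparison. Sums for inhibitory neurons ran from 413 to 551 over vehicle, from 440 to 702 over R33 and from 359 to 659 over R55 libraries. General neuron markers summed to 1800 to 3055 in vehicle, 2094 to 3095 in R33 and 2369 to 3105 in R55 libraries. Oligodendrocyte markers ran from 516 to 2168 in vehicle, 1153 to 2487 in R33 and 900 to 1941 in R55 libraries. Astrocyte markers ran from 253 to 947, microglia markers from 103 to 250 and endothelial markers from 31.7 to 120 over all libraries. Striatal markers reached 76.4 in vehicle, 131 in R33 and 31.6 in R55 libraries from lows of 9.89, 10.9 and 11.9. Of the 5 red blood cell markers the 4 haemoglobin genes were listed at 0 in every library, and Alas2 reached 8.17. No marker was called. Between hemispheres, Gfap was at 0.54, Gad2 at 0.27 and Gad1 at 0.21 for injected against contralateral over all mice (limma, unadjusted p 0.0329, 0.0195 and 0.0149). These were the markers under 0.05 in that comparison, where 189 of the 12976 tested genes were higher at that level. At an unadjusted p under 0.05 in limma, Pvalb, a marker of inhibitory neurons, was at 0.47 in R55 mice (p 0.0164), at 0.47 in R33 mice (p 0.0185) and at 0.81 contralaterally in R55 mice (p 0.00310). Pvalb on the injected side of R55 mice was at 0.13 (limma, unadjusted p 0.609). Of the other inhibitory markers in R55 mice, Gad1 was at 0.12, Slc32a1 at 0.11, Sst at 0.07 and Gad2 at -0.11, none at that level. The astrocyte marker Aldh1l1 was at 0.38 in R55 mice, 0.31 in R33 mice and 0.47 contralaterally in R55 mice (limma, unadjusted p 0.0124, 0.0406 and 0.0143). The other astrocyte markers in R55 mice were Gja1 at 0.20, Aqp4 at 0.13, Gfap at 0.09 and Slc1a3 at 0.06, none at that level. Alas2 was at 0.55 in R55 mice (limma, unadjusted p 0.0232) and 0.67 contralaterally in them (limma, unadjusted p 0.0155). Pvalb, Aldh1l1 and Alas2 were named for these values. The part of these markers and of tissue makeup in the scaffold values was not tested.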

How the data were processed

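Total RNA from cortex blocks (RIN above 8.5 in the study's methods) was made into stranded mRNA libraries, sequenced as paired ends and aligned with HISAT2 to GRCm39 by the authors. The counting tool and the annotation are not given in the sources used here. The deposited values are FPKM, computed by the authors per library, with no further scaling. 5 libraries in the table had no sample among those given and were not used, and 32 repeated header lines were dropped. Groups came from the sample titles. The hemispheres of a mouse are not independent, so the main fit, which follows the authors' design of treatment and hemisphere as separate factors, treats 27 libraries as replicates and can understate errors of comparisons between treatments.

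Genes that reached 1 FPKM on average were tested as log2(FPKM + 1) with limma 3.58.1 in R 4.3.3 (intensity trend, Benjamini-Hochberg adjustment over 12976 genes, threshold 0.05). Fold changes on this scale understate changes of low genes. Fragments were recovered as whole numbers, 100.0% of values lying within 0.01 of one, and gave depth, gene length and a count-based alternative (voom), which called 1 gene for R55 against vehicle. Lengths are those implied by the FPKM values. Hemispheres were paired by mouse, since the letters name animals: over 13 pairs the deviations from group means correlated at 0.394 on average (-0.0787 to 0.648). The 9 members were named always, of other postsynaptic genes the 2 most abundant in each role, and as most alike the 5 genes with the highest correlation with the members' mean. Members and lists were chosen with earlier results of these data known. The length trend was removed by lowess (span 0.3). The fit was tested on simulated data drawn independently for each library. These data held no likeness within mice and no length trend, so that the test does not bear on either. Depth, 15932197 to 38077027 fragments per library, left at least 2042 fragments for every member in every library, so that counting error was small beside the spread between mice. Alternatives included another pseudocount, other filters, median-of-ratios scaling, the label series, 1 value per mouse, the replicate block, removal of the length trend and leaving out each mouse. A gene of the list of other postsynaptic genes is counted but not reported by name here.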

Additional observations from a re-analysis of the deposited data

Results flagged for a closer look

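In 5 of the 54 combinations of a member and a group of 4 or 5 libraries, 1 library stood apart from the others by Dixon's criterion, where chance alone gives about 1 in 20. Shank1 was high in the contralateral hemisphere of the R55 mouse R, at 125.1 FPKM. Contralateral libraries of the R33 mouse N were high for Shank2, at 34.39 FPKM, and for Shank3, at 58.26 FPKM. Dlg1 was low on the injected side of the vehicle mouse M, at 24.34 FPKM, and Dlg2 was high on the injected side of the vehicle mouse AH, at 70.21 FPKM.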

How the results depend on the processing

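Of 27 alternatives for Lrrc7 in R55 against vehicle, 27 left it lower, from -0.52 to -0.14, and 2 passed the adjusted threshold, with limma adjusted p from 0.00952 to 0.9998. Members called there were 0 in the main fit, 1 with only the compared treatments, and 0 to 1 when mice were left out in turn (1 without the R33 mouse AD). Over all genes, limma called 1 for R55 against vehicle in the main fit, 12 with only the compared treatments, 4 without the 2 libraries of steepest slope, 0 to 50 with mice left out (50 without the R33 mouse AD), and 0 with no filter, median-of-ratios scaling, the label series, the length trend removed, 1 value per mouse or the replicate block. R33 against vehicle had 1 call with no filter, and R55 against R33 had 2 without mouse AD. Leaving out the steepest libraries, 1 value per mouse with the trend removed, and pairs within 1 treatment were chosen after seeing the data. The members' median for R55 against vehicle was -0.082, and became -0.037 with the length trend removed, -0.037 with 1 value per mouse and the trend removed, -0.046 without the 2 libraries of steepest slope, and -0.089 to -0.034 with mice left out. For R33 it ran from -0.12 to -0.046 with mice left out. On the injected side R33 gave -0.055 with the trend removed, -0.049 without the steepest libraries and -0.19 to -0.049 with mice left out. Contralaterally R55 gave -0.081 with the trend removed, -0.14 without the steepest libraries and -0.29 to -0.14 with mice left out, and R33 gave -0.015 with the trend removed and -0.093 to -0.030 with mice left out. The cause of these shifts was not tested.

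With the mouse as replicate block, injected against contralateral gave a median of -0.027, and 0.16 in R55 mice alone. With the replicate block as a modelled correlation Lrrc7 in R55 kept -0.47 (limma, adjusted p 0.900). The block changed no adjusted call of a member. The libraries of a mouse share the animal, so errors of comparisons between treatments can be too small without the block. Within mice, the block raised the genes at an unadjusted p under 0.05 from 189 higher and 261 lower to 403 and 392 for injected against contralateral, and the members at that level from 2 to 4 for the interaction.

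Signs turned for small differences, in 45 of 962 alternatives over members, none over 0.103 in size. With the length trend removed, R55 against vehicle gave 0.036 for Shank2 and 0.032 for Dlg2, R33 gave 0.025 for Dlg2 and 0.060 for Homer1, and R55 against R33 gave 0.0060 for Shank3 and 0.0070 for Dlg2. With 1 value per mouse and the trend removed the values were 0.036 for Shank2 and 0.032 for Dlg2 in R55, 0.025 for Dlg2 and 0.018 for Homer1 in R33, and 0.0070 for Dlg2 in R55 against R33. With the label series as covariate Homer1 in R33 was 0.016 and Shank3 in R55 against R33 was 0.0073. Without the steepest libraries Homer1 in R33 was 0.035 and Dlg4 in R55 against R33 was 0.012. With mice left out, R55 against vehicle ran from -0.036 to 0.14 for Homer1, R33 from -0.099 to 0.00087 for Dlg2, -0.069 to 0.0011 for Dlg4 and -0.18 to 0.069 for Homer1, and R55 against R33 from -0.025 to 0.058 for Dlg1, -0.046 to 0.035 for Dlg2, -0.067 to 0.0032 for Dlg3, -0.053 to 0.020 for Dlg4, -0.025 to 0.23 for Homer1, -0.053 to 0.12 for Shank1 and -0.13 to 0.10 for Shank3.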
